A study of Mus musculus with 34 samples.

Results

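The nuclear genes for the mitochondrial respiratory chain and ATP synthase were followed through mouse T cell activation and across 5 mutant genotypes. Members were the protein-coding genes whose GENCODE M21 symbol begins with Nduf, Uqcr, Cox4 to Cox8, Atp5 or Sdha to Sdhd and whose mean level over the 34 libraries was at least 1 CPM (counts per 1000000 counts of the library). The rule gave 85 of the 48526 genes in the table. Of these, 76 encode subunits, with 36 in complex I (7 core and 29 accessory), 4 in complex II, 8 in complex III, 12 in complex IV and 16 in complex V. The other 9 are factors that the same symbols bring in, 8 of them assembly factors of complex I (the Ndufaf genes) and the remaining one Atp5s, known as coupling factor B. Ndufa4 was counted with complex IV, where its protein resides. Cox7a2l, a factor of respiratory supercomplexes, was counted among the complex IV subunits too.

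Another 8 genes with such symbols fell under the minimum. The highest of them was Cox6b2 at 0.574 CPM, followed by Cox7a1 at 0.232 CPM and Ndufa4l2 at 0.229 CPM, while Cox7b2 and Cox8c had no count in any library. The lowest member inside the limit was Atp5s at 2.32 CPM. Several of the genes left out, such as Cox7a1, Cox6a2 and Cox8b, are the heart and skeletal muscle forms of complex IV subunits, and Cox6b2, Cox7b2 and Cox8c are known from testis. All 85 members passed the filter on low counts.

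The cells were pan T cells purified from spleen by negative selection, from C57BL/6 mice aged 6 to 12 weeks. Stimulated cells received anti-CD3, anti-CD28 and recombinant IL-2 for 24 h (D1) or 72 h (D3). At each of these times there were 3 libraries of ARS2 KO (loss of the cap-binding partner encoded by Srrt), 2 labelled CD28 KO, 3 of DKI, 3 of AYAA (a mutated proline motif in the CD28 tail), 3 of Y170F (a mutated tyrosine motif in that tail) and 2 of WT. Unstimulated WT cells (D0) had 2 libraries, and no mutant was sampled before stimulation. The labels call the libraries biological replicates, and they give neither the driver of the Ars2 deletion nor the changes that DKI carries. A stranded preparation of total RNA without ribosomal RNA was sequenced, so the values cover polyadenylated and other transcripts of CD4 and CD8 T cells together. In such bulk samples fewer cells of a type and less RNA per cell cannot be told apart.

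The respiratory chain passes electrons from NADH (complex I) and succinate (complex II) through complex III to oxygen at complex IV, and the proton gradient this builds drives ATP synthesis by complex V. Complexes I, III, IV and V each join subunits from the nuclear and the mitochondrial genome, while complex II is wholly nuclear-encoded. Resting T cells rely largely on oxidative metabolism, and activation is known to increase mitochondrial mass together with glycolysis.

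Library totals ranged from about 8348900 to 47762600 counts, and the 85 members took 0.331 to 0.727% of them. The DKI libraries and WT library number 4 of each day were the shallow ones. The unstimulated libraries stood apart, with 17.2 and 17.5% of counts from mitochondrial ribosomal RNA against at most 0.18% in all others. Their summed level of 8 B cell markers was 724 and 748 CPM, against at most 98.4 CPM in the stimulated libraries. The summed myeloid markers were 142 and 146 CPM at D0 against at most 27.0 CPM, the erythroid markers 92.7 and 323 CPM against at most 47.3 CPM, and small noncoding RNA took 14.8 and 15.3% of counts against at most 7.28%. In all libraries 10 T cell markers summed to between 1823 and 3297 CPM per library. By Xist and Y-linked transcripts, the D0 libraries came from female mice and the stimulated WT and DKI libraries from male mice, and the other genotypes were mixed. Srrt was 33.8, 64.8 and 33.5 CPM in ARS2 KO at D1, against 244 and 131 CPM in WT at D1. At D3 it was 108, 146 and 105 CPM in ARS2 KO, against 245 and 145 CPM in WT, so 1 ARS2 KO library reached the lower WT level on that day. Cd28 was 482 and 476 CPM in the libraries labelled CD28 KO at D1, against 387 and 411 CPM in WT at D1, and 212 and 214 CPM there at D3, against 474 and 587 CPM in WT at D3. It was thus lower than WT at D3 but not at D1, and a count over the whole gene does not check a disrupted allele that is still transcribed. Of the 85 members, 27 share exon bases with a gene on the opposite strand, Cox5a with Gm26631 and Atp5j with Gabpa among them, and whether the counting used strand is not given in the sources used here.

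In unstimulated WT cells, levels per kilobase of exon differed between complexes. The median over subunits was 19.7 CPM per kb for complex I, 30.7 for complex II, 43.1 for complex III, 52.4 for complex IV and 35.4 for complex V, and the factors had a median of 4.42 CPM per kb. The highest members on this scale were Cox7a2l at 175 CPM per kb and Atp5a1, the α subunit of the F1 part of ATP synthase, at 153 CPM per kb. The catalytic β subunit Atp5b led in WT at D1, with 174 CPM per kb. The factors were thus at low levels beside the subunits they help to assemble.

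The promoter windows of 6 members show the sequence context of genes that moved together and of genes that did not. NRF1 and GABP (NRF2) are transcription factors known to bind many promoters of respiratory chain genes. RefSeq windows (GRCm38.p6) of 250 bases before and 50 after the start were at hand for 72 of the 85 members. The letters GCGC, any 1 base and TGCGC in a row, on either strand, stood for NRF1 and CCGGAAG, on either strand, for GABP. Each sequence below covers the 250 bases before the start, read 5′ to 3′ on the gene's strand, with motif matches of either kind in capitals. Sdha spans chr13:74350241-74350490 on the minus strand and had the smallest spread between groups of all members, together with Ndufb2. Sdhd spans chr9:50603850-50604099 on the minus strand and fell most in complex II in the libraries labelled CD28 KO at D1. Cox6a1 spans chr5:115348959-115349208 on the minus strand and is shown for its 2 NRF1 matches. Cox5a spans chr9:57520982-57521231 on the plus strand and had the widest spread between groups. Ndufaf4 spans chr4:24897833-24898082 on the plus strand, and Cox7a2l spans chr17:83514334-83514583 on the minus strand. Both are shown because they went against most members.
Sdha: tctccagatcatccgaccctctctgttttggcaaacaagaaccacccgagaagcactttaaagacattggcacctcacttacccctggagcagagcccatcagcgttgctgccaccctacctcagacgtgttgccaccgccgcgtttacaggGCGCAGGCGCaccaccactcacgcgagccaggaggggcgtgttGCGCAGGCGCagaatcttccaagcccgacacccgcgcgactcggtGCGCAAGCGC
Sdhd: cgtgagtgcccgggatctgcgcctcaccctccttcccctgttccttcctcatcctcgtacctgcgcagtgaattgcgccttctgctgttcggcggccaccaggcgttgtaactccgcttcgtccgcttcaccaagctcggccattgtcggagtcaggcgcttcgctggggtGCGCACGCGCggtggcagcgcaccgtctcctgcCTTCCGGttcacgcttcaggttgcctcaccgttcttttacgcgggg
Cox6a1: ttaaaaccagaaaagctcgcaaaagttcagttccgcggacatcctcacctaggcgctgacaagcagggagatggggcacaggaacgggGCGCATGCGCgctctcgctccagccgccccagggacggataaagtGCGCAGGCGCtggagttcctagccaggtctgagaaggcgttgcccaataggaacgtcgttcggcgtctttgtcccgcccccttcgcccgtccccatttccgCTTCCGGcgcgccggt
Cox5a: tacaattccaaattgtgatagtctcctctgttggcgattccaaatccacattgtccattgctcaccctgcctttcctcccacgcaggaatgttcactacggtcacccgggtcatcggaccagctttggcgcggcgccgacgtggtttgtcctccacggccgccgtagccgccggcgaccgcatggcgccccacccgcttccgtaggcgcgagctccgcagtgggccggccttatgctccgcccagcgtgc
Ndufaf4: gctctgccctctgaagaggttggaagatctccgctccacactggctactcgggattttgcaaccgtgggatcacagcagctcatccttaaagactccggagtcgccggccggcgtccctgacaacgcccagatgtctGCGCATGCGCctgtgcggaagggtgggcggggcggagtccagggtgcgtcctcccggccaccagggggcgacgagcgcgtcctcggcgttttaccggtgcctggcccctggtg
Cox7a2l: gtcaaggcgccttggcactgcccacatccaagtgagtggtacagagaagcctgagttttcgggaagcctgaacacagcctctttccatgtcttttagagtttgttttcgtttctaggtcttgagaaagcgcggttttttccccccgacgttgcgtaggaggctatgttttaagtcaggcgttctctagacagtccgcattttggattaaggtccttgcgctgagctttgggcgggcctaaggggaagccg

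The NRF1 letters occurred in 19 of the 72 members' windows (26.4%), against 7.17% of the windows of 17491 protein-coding genes. The GABP letters occurred in 18 of them (25%), against 12.9% of protein-coding genes, and either motif in 33 (45.8%), against 18.6%. By complex, the NRF1 letters were in 7 of 32 windows for complex I, 2 of 3 for complex II, 1 of 5 for complex III, 1 of 10 for complex IV, 6 of 14 for complex V and 2 of 8 for the factors. Among the 6 shown, Sdha held 3 NRF1 matches, Sdhd 1 match of each kind, Cox6a1 2 of NRF1 and 1 of GABP, Ndufaf4 1 of NRF1, and Cox5a and Cox7a2l none. A match describes letters and not a bound site. The members with and without the NRF1 letters had median log2 fold changes of −0.90 (n = 19) and −0.88 (n = 53) in the libraries labelled CD28 KO against WT at D1. With and without the GABP letters they were −0.89 (n = 18) and −0.87 (n = 54). The part of either factor in these changes was not tested.

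Stimulation of WT cells moved single members strongly and the set as a whole by less, with most calls upward. At D1, 21 of the 85 members were higher than at D0 and 6 lower by edgeR's quasi-likelihood test, at a Benjamini-Hochberg adjusted p under 0.05 over 18292 genes, the threshold for every call here. This share lay below the 51.3% of all genes called, of which 24.2% were higher and 27.2% lower. At D3, 41 members were higher and 7 lower than at D0, against 50.5% of all genes called (23.5% higher, 27% lower), and the median log2 fold change of the members was 0.29 beside −0.07 for all genes. Between D1 and D3, 14 members were higher at D3 and 3 lower, against 29.5% of all genes (15.5% higher, 14% lower).

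Within complex III, Uqcrq, a small subunit, changed most. Its level was 14.1 and 13.7 CPM at D0, 43.7 and 34.6 CPM at D1 and 40.2 and 29.2 CPM at D3. All stimulated WT libraries exceeded both unstimulated ones, with log2 fold changes of 1.502 ± 0.24 (SE, adjusted p = 1.0e-05) at D1 and 1.33 ± 0.24 (adjusted p = 4.3e-05) at D3. Uqcrh, the hinge protein near cytochrome c1, moved the other way in the same complex, with 115 and 120 CPM at D0, 75.9 and 72.2 CPM at D1 and 88.6 and 83.3 CPM at D3. The unstimulated libraries were the highest of the 6, and Uqcrh fell by 0.66 ± 0.08 at D1 (adjusted p = 2.5e-07). Uqcrfs1, the Rieske iron-sulfur protein, rose by 0.34 at D1, and the core protein Uqcrc1 had a log2 fold change of 0.05 ± 0.14 (adjusted p = 0.78).

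Complex IV showed the same mixture. Cox5a was 31.4 CPM in both D0 libraries, 71.7 and 70.3 CPM at D1 and 83.9 and 58.8 CPM at D3, with log2 fold changes of 1.18 ± 0.22 (adjusted p = 7.0e-05) and 1.19 ± 0.22 (adjusted p = 5.5e-05). All 4 stimulated libraries lay above the unstimulated ones. Cox7a2l, a factor of respiratory supercomplexes of which C57BL/6 mice are known to carry a short form, was 259 and 258 CPM at D0, 112 and 135 CPM at D1 and 166 and 190 CPM at D3. It fell by 1.06 on the log2 scale at D1 (SE 0.15, adjusted p = 2.5e-06) and stayed lower at D3 (−0.54 ± 0.15, adjusted p = 0.0041). At D1, 4 of 12 complex IV subunits were higher and 1 lower, and at D3 10 were higher and 1 lower, the lower one being Cox7a2l. The shares of all genes were 24.2% higher and 27.2% lower at D1, and 23.5% and 27% at D3. Cox4i1, an early-assembling subunit, had a log2 fold change of −0.04 ± 0.10 (adjusted p = 0.75) at D1 and rose by 0.42 ± 0.10 (adjusted p = 8.0e-04) at D3.

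Among complex I subunits the calls at D1 fell on accessory ones, but the difference between them and the core was not tested. None of the 7 core subunits was called at D1, when their log2 fold changes ran from −0.10 to 0.33. Of 29 accessory subunits, 8 were higher and 3 lower, where 24.2% of all genes were higher and 27.2% lower. The mean log2 ratio to D0 in WT at D1 was 0.11 ± 0.11 (SD, n = 2) over core and 0.18 ± 0.12 over accessory subunits. Ndufab1, the mitochondrial acyl carrier protein that is also a complex I subunit, was 26.9 and 28.5 CPM at D0, 58.3 and 58.6 CPM at D1 and 42.4 and 32.6 CPM at D3. The 4 stimulated libraries exceeded the unstimulated ones, and the D1 log2 fold change was 1.08 ± 0.19 (adjusted p = 3.2e-05). Ndufa12 rose by 0.96 and Ndufa5 by 0.95 at D1. Ndufa6, Ndufa13 and Ndufa2 fell by 0.67, 0.52 and 0.41. At D3, 19 of 36 complex I subunits were higher, 3 of them core subunits, and Ndufa6 was the only one called lower. By comparison, 23.5% of all genes were higher and 27% lower.

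Ndufv3, an accessory subunit of the NADH-oxidising arm, answered late. It was 36.2 and 37.4 CPM at D0, 37.2 and 37.3 CPM at D1, and 86.2 and 60.2 CPM at D3, so only the D3 libraries were high. Its log2 fold change at D3 was 1.00 ± 0.13 (adjusted p = 3.8e-07) over D0 and 0.98 ± 0.13 (adjusted p = 2.4e-06) over D1. The core subunit Ndufs1, which carries iron-sulfur clusters, had a log2 fold change of 0.01 ± 0.14 (adjusted p = 0.97) at D1 and −0.11 ± 0.14 (adjusted p = 0.55) at D3.

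Complex V and complex II moved upward where they moved. In complex V, 4 of 16 subunits were higher at D1 and 8 at D3, with none called lower. Of all genes, 24.2% were higher and 27.2% lower at D1, and 23.5% and 27% at D3. The D1 count of higher subunits was thus near the share of all genes. Atp5j, coupling factor 6 of the peripheral stalk, was 40.0 and 38.3 CPM at D0, 77.3 and 70.4 CPM at D1 and 90.7 and 76.8 CPM at D3. All stimulated libraries lay above both D0 libraries, and the gene rose by 1.10 ± 0.13 at D3 (adjusted p = 7.3e-08). Atp5d, the δ subunit of F1, rose by 0.95 at D1 and 1.02 at D3. Sdha, the flavoprotein of complex II, rose by 0.40 ± 0.12 (adjusted p = 0.0066) at D1, and Sdhb, its iron-sulfur partner, by 0.66 ± 0.17 (adjusted p = 0.0025) at D3. In the strip plot of the WT response the called subunits lie mostly above 0 in every complex.

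**Figure D1:**
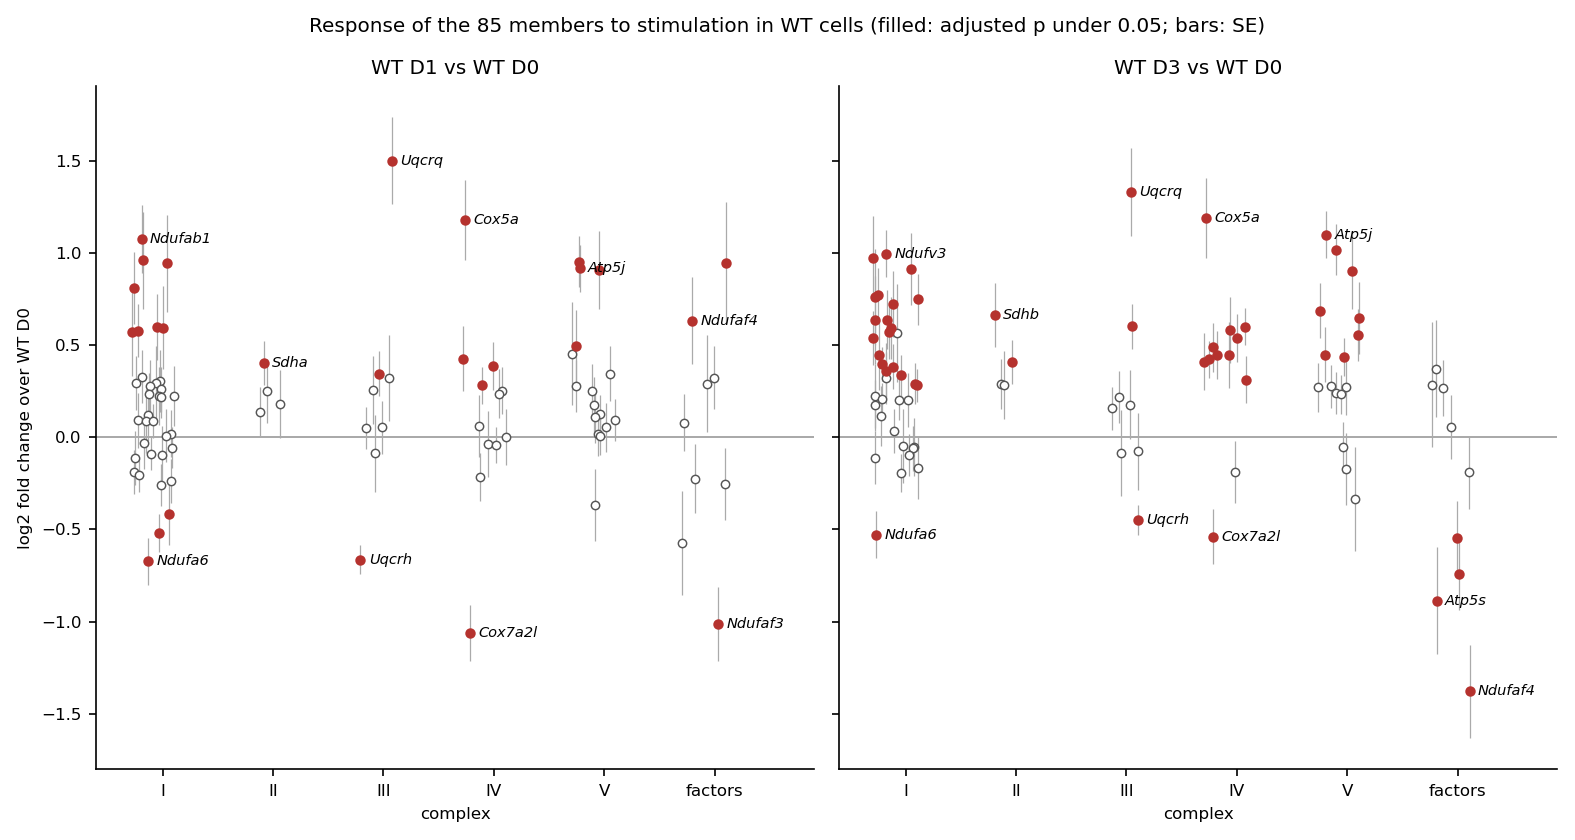
Log2 fold change (vertical axis) of each of the 85 members in WT cells at D1 and at D3 over D0, by complex, with bars for the SE and filled points for an adjusted p under 0.05. Uqcrq and Cox5a lie highest on both days, Cox7a2l is lowest at D1 and Ndufaf4 at D3.

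Some of the complex I assembly factors did not follow the subunits. Ndufaf4 was 25.6 and 25.4 CPM at D0, 42.5 and 36.5 CPM at D1 and 11.6 and 7.51 CPM at D3. It was thus highest at D1 and lowest at D3 with no overlap, higher by 0.63 ± 0.24 (adjusted p = 0.028) at D1 over D0 and lower by 2.01 ± 0.26 on the log2 scale at D3 over D1 (adjusted p = 1.7e-06). Ndufaf3, which acts with Ndufaf4 early in assembly, fell by 1.01 ± 0.20 (adjusted p = 1.7e-04) at D1. At D3, 4 of the 9 factors were lower than at D0 and none higher, where 27% of all genes were lower and 23.5% higher. The lower factors were Ndufaf4, Ndufaf3, Ndufaf8 and Atp5s, and the other Ndufaf genes were not called.

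The c ring of ATP synthase is built from 3 genes whose mature protein is the same. Atp5g1 supplied 9.87% of their summed level per kilobase at D0, 9.54% at D1 and 5.14% at D3 in WT cells. Atp5g3 made up 38.0% at D0, 50.3% at D1 and 47.6% at D3, and Atp5g2 made up 52.2%, 40.1% and 47.3% at these times. Atp5g3 rose by 0.91 at both times over D0, whereas Atp5g1 was lower at D3 than at D1 by 0.79 ± 0.29 on the log2 scale (adjusted p = 0.039).

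The part that B cell, myeloid and erythroid markers, ribosomal and small RNA or sex play in these D0 comparisons was not tested beyond a fit with sex as a term, which kept 25 of the 27 calls at D1 and 45 of the 48 at D3. The count at D1 was 16 without D0 library number 1 and 14 without D1 library number 1, the count at D3 over D0 was 20 without D3 library number 1, and that at D3 over D1 was 8 without D1 library number 4 and 11 without D3 library number 1.

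In the libraries labelled CD28 KO, the respiratory chain was broadly lower at D1. Of the 85 members, 77 were lower than WT at D1 and 1 higher, while 43.3% of all genes were called, with 18.6% of all genes higher and 24.7% lower. The median log2 fold change of the members was −0.89 beside 0.02 for all genes, and in 80 members both libraries labelled CD28 KO lay below both WT libraries, as 35.3% of all genes did. The group mean was the lowest of all 13 groups for 77 of the 85 members.

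The decrease ran through every complex. Lower calls covered 32 of 36 subunits in complex I, 4 of 4 in complex II and 8 of 8 in complex III. They covered 11 of 12 in complex IV (all but Cox7a2l), 16 of 16 in complex V, and 6 of the 9 factors. Median log2 fold changes were −0.78, −1.01, −1.25, −0.96 and −0.95 for complexes I to V, and −0.57 for the factors. The members not called were the subunits Ndufa6, Ndufb2, Ndufb7 and Ndufs7 and the factors Ndufaf3, Ndufaf5 and Atp5s, with log2 fold changes between −0.38 and 0.12.

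**Figure D2:**
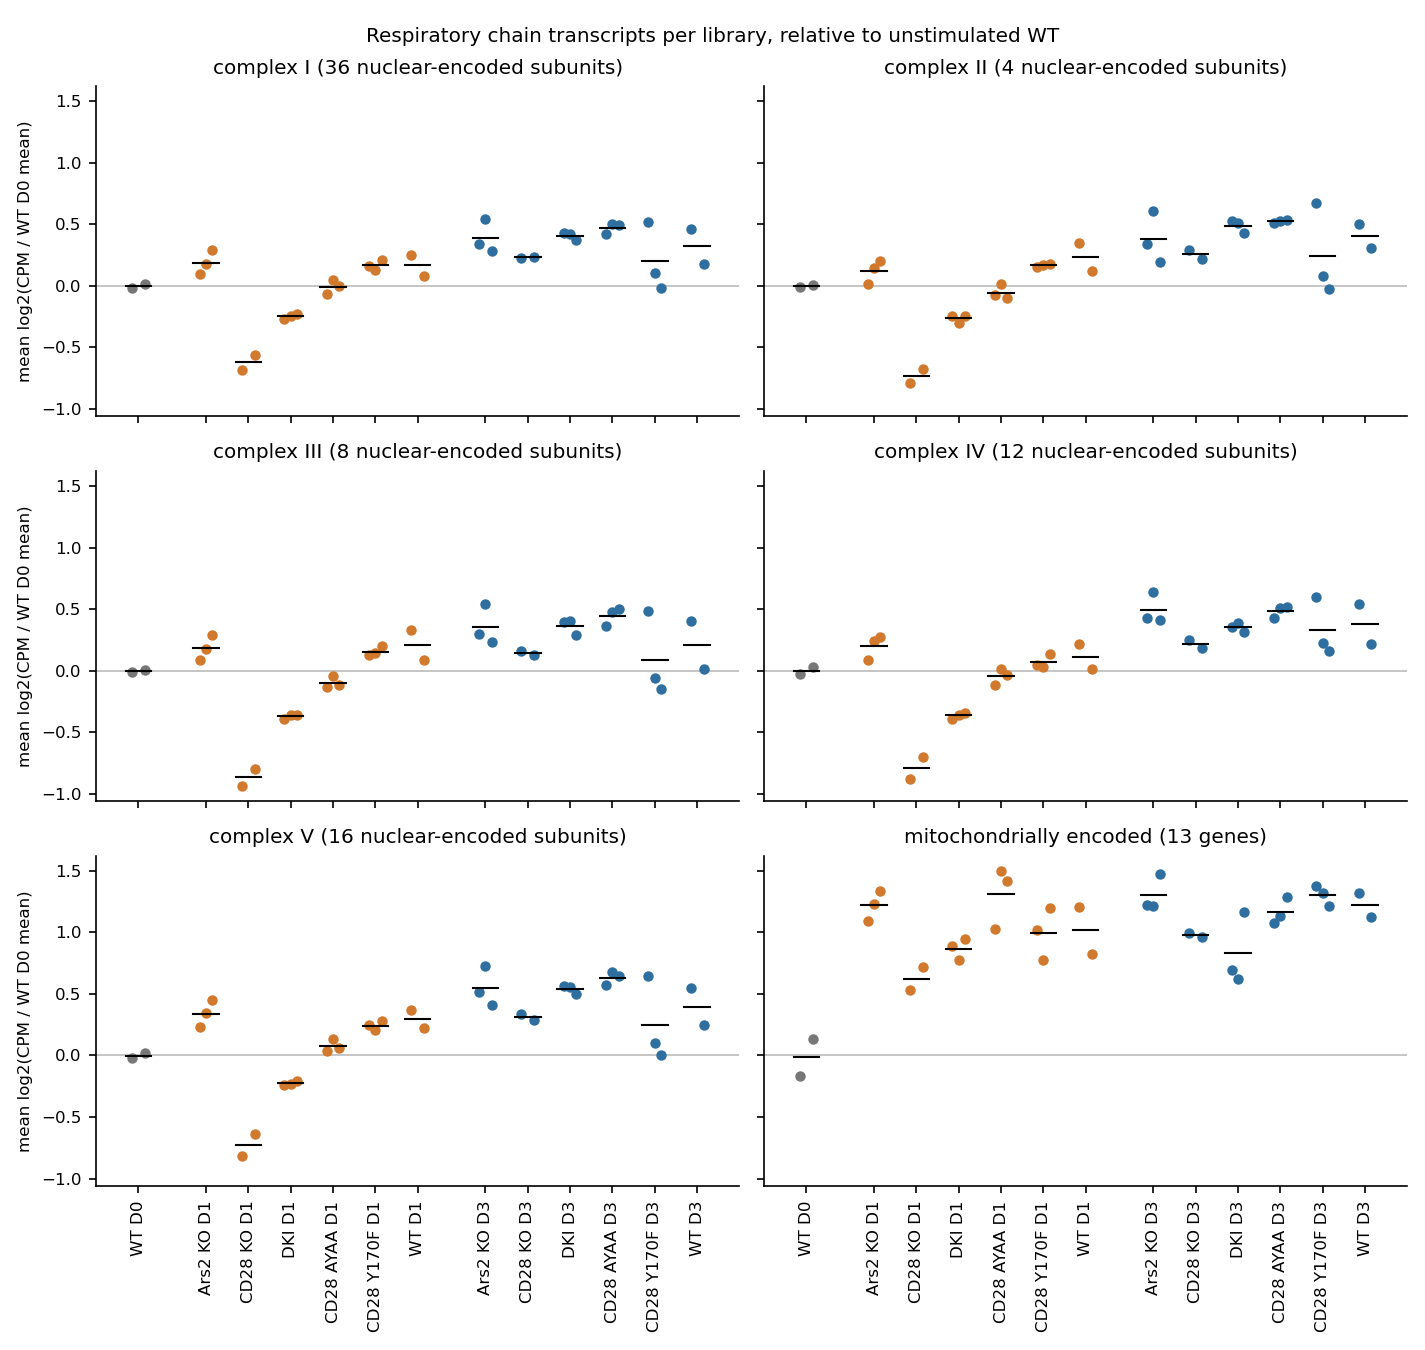
Mean log2 ratio of CPM to the unstimulated WT mean (vertical axis) over the subunits of each complex and over the mitochondrially encoded genes, 1 point per library and a bar for the group mean, by genotype and day. The libraries labelled CD28 KO at D1 lie lowest in each nuclear panel, and DKI at D1 lies between them and WT.

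Cox5a showed the deepest decrease among subunits. It was 20.3 and 23.4 CPM in the libraries labelled CD28 KO, against 71.7 and 70.3 CPM in WT, without overlap (log2 fold change −1.70 ± 0.22, adjusted p = 1.6e-06). In complex I, Ndufa12 was 12.9 and 14.0 CPM in the libraries labelled CD28 KO, against 47.2 and 38.2 CPM in WT (−1.67 ± 0.27, adjusted p = 2.6e-05). Both mutant libraries were far below both WT libraries for these genes. In complex V, Atp5b was 270 and 305 CPM in the libraries labelled CD28 KO, against 811 and 664 CPM in WT (−1.36 ± 0.20, adjusted p = 7.2e-06).

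In complex II, the membrane anchor Sdhd was 24.2 and 26.7 CPM in the libraries labelled CD28 KO, against 75.1 and 60.6 CPM in WT (−1.42 ± 0.19, adjusted p = 2.2e-06). The flavoprotein Sdha was 141 and 150 CPM there, against 211 and 186 CPM in WT (−0.45 ± 0.12, adjusted p = 0.0035). Neither gene overlapped between the groups, and subunits of the same 4-protein complex thus differed in size of change. In complex III, Uqcr10 fell by 1.44 ± 0.19 (adjusted p = 2.3e-06) and the Rieske protein Uqcrfs1 by 1.20 ± 0.13 (adjusted p = 6.7e-08), while Uqcrh, called lower too, had the value nearest 0 in that complex at −0.24.

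Cox7a2l was the only member called higher. It was 186 and 211 CPM in the libraries labelled CD28 KO, against 112 and 135 CPM in WT at D1 (0.68 ± 0.15, adjusted p = 6.7e-04), and the groups did not overlap. Unstimulated WT cells had 259 and 258 CPM, so the mutant libraries lay between the D1 and D0 levels of WT.

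Most members were also lower than in unstimulated cells. Against WT at D0, 73 members were lower and none higher in the libraries labelled CD28 KO, beside 52.2% of all genes called (21.1% higher, 31.1% lower), and the median log2 fold change was −0.73 beside −0.12 for all genes. Uqcr11, a small complex III subunit, was 9.49 and 10.2 CPM in the libraries labelled CD28 KO, against 26.9 and 28.1 CPM at D0 (−1.48 ± 0.22, adjusted p = 5.0e-06). Atp5k, the e subunit of ATP synthase, fell by 1.27 and Ndufb9 by 1.26. Uqcrq and Cox5a, which stimulation raised most in WT, were close to or below D0, with Uqcrq at 14.0 and 15.5 CPM and Cox5a at 20.3 and 23.4 CPM.

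The summed B cell markers were 98.4 and 67.1 CPM in these libraries, against 20.4 and 7.11 CPM in WT at D1, and their part in the result was not tested. With the deeper WT library alone kept on each day the count was 77 members, 76 of them among the original calls. It ran from 65 (without the deeper WT library, number 1) to 75 (without WT number 4) when any 1 library was left out.

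DKI cells took an intermediate position at D1. There, 61 members were lower than WT and none higher, against 26% of all genes called (10.3% higher, 15.8% lower), with a median log2 fold change of −0.49. For 83 of the 85 members the DKI mean at D1 lay between the means of WT and of the libraries labelled CD28 KO. Cox5a was 40.9, 40.5 and 42.0 CPM in DKI cells, against 71.7 and 70.3 CPM in WT (−0.79 ± 0.20, adjusted p = 0.0051). Uqcr10 was 17.5, 17.8 and 21.3 CPM in DKI cells, against 40.6 and 32.9 CPM in WT (−0.97 ± 0.17, adjusted p = 3.0e-04). Sdhd was 37.9, 39.0 and 38.1 CPM in DKI cells, against 75.1 and 60.6 CPM in WT (−0.83 ± 0.17, adjusted p = 0.0011). No DKI library reached a WT value for these 3 genes. The calls rested on the deeper WT library: without WT library number 1 at D1, which leaves the WT library of matching depth, only 3 members were called lower, with a median of −0.34 and 3.52% of all genes called.

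Set directly against the libraries labelled CD28 KO at D1, DKI cells had 36 members higher and none lower, against 9.06% of all genes called (6.3% higher, 2.76% lower), with a median log2 fold change of 0.41. These were 12 subunits of complex I, 3 of complex II, 3 of complex III, 7 of complex IV and 11 of complex V, and no factor. Cox5a, at 40.9, 40.5 and 42.0 CPM in DKI cells against 20.3 and 23.4 CPM in the libraries labelled CD28 KO, differed most (0.91 ± 0.21, adjusted p = 0.0070). Uqcrc2, a core protein of complex III, was higher by 0.66 ± 0.11 (adjusted p = 3.7e-04). The count was 2 without CD28 KO library number 1, 20 without its number 2 and 21 without DKI library number 3.

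AYAA, Y170F and ARS2 KO cells had no member called against WT at D1. For AYAA cells 3.61% of all genes were called, the median log2 fold change of the members was −0.20, and all AYAA libraries lay below both WT libraries in 47 members, as in 20% of all genes. For these, 28 members had an unadjusted p under 0.05, DESeq2 called 5 and limma-voom 0. Uqcr10 was 26.6, 26.0 and 23.9 CPM in AYAA cells, against 40.6 and 32.9 CPM in WT, lower in every library but not called (−0.53 ± 0.17, adjusted p = 0.073). The AYAA count was 3 without WT library number 4. In Y170F cells, with 0.0547% of all genes called, 1 member had an unadjusted p under 0.05. In ARS2 KO cells, with 0.399% called, 6 did, and DESeq2 and limma-voom called no member in either genotype. The median log2 fold changes were −0.03 in Y170F cells and 0.01 in ARS2 KO cells, but with 2 WT libraries that differ from each other these values do not show that the genotypes equal WT.

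The direct comparison of AYAA with Y170F cells at D1 gave no call either, with 4.35% of all genes called, 22 members at an unadjusted p under 0.05, 6 called by DESeq2 and 0 by limma-voom. The median log2 fold change was −0.20. With the replicate number as a block, 1 member was called, and in a fit to these groups alone 30 were, 2 higher and 28 lower.

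Against unstimulated WT cells, the genotypes fell into an order at D1 that the shared D0 libraries put on one scale. Over the 85 members the mean log2 ratio to D0 was −0.71 ± 0.10 (SD, n = 2) in the libraries labelled CD28 KO and −0.30 ± 0.01 (n = 3) in DKI cells. It was −0.02 ± 0.06 in AYAA, 0.16 ± 0.04 in Y170F and 0.19 ± 0.10 in ARS2 KO cells (n = 3 each), and 0.17 ± 0.14 (n = 2) in WT. The libraries of Y170F, ARS2 KO and WT overlapped each other. Those of AYAA, from −0.09 to 0.03, lay below all of these, the lowest of which was a WT library at 0.08. The libraries of DKI and those labelled CD28 KO lay below the AYAA libraries. DKI cells had 4 members higher and 40 lower than D0, with 49.1% of all genes called (21.7% higher, 27.5% lower). AYAA cells had 9 higher and 11 lower, with 50% of all genes called (23.8% higher, 26.2% lower). Y170F cells had 20 higher and 7 lower, with 54.7% called (25.8% higher, 28.9% lower), and ARS2 KO cells 23 higher and 7 lower, with 53.6% called (25.7% higher, 28% lower). In these comparisons the count of calls was 29 for DKI, 13 for AYAA, 17 for Y170F and 17 for ARS2 KO without D0 library number 1, and 12 for AYAA without D0 library number 2.

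**Figure D3:**
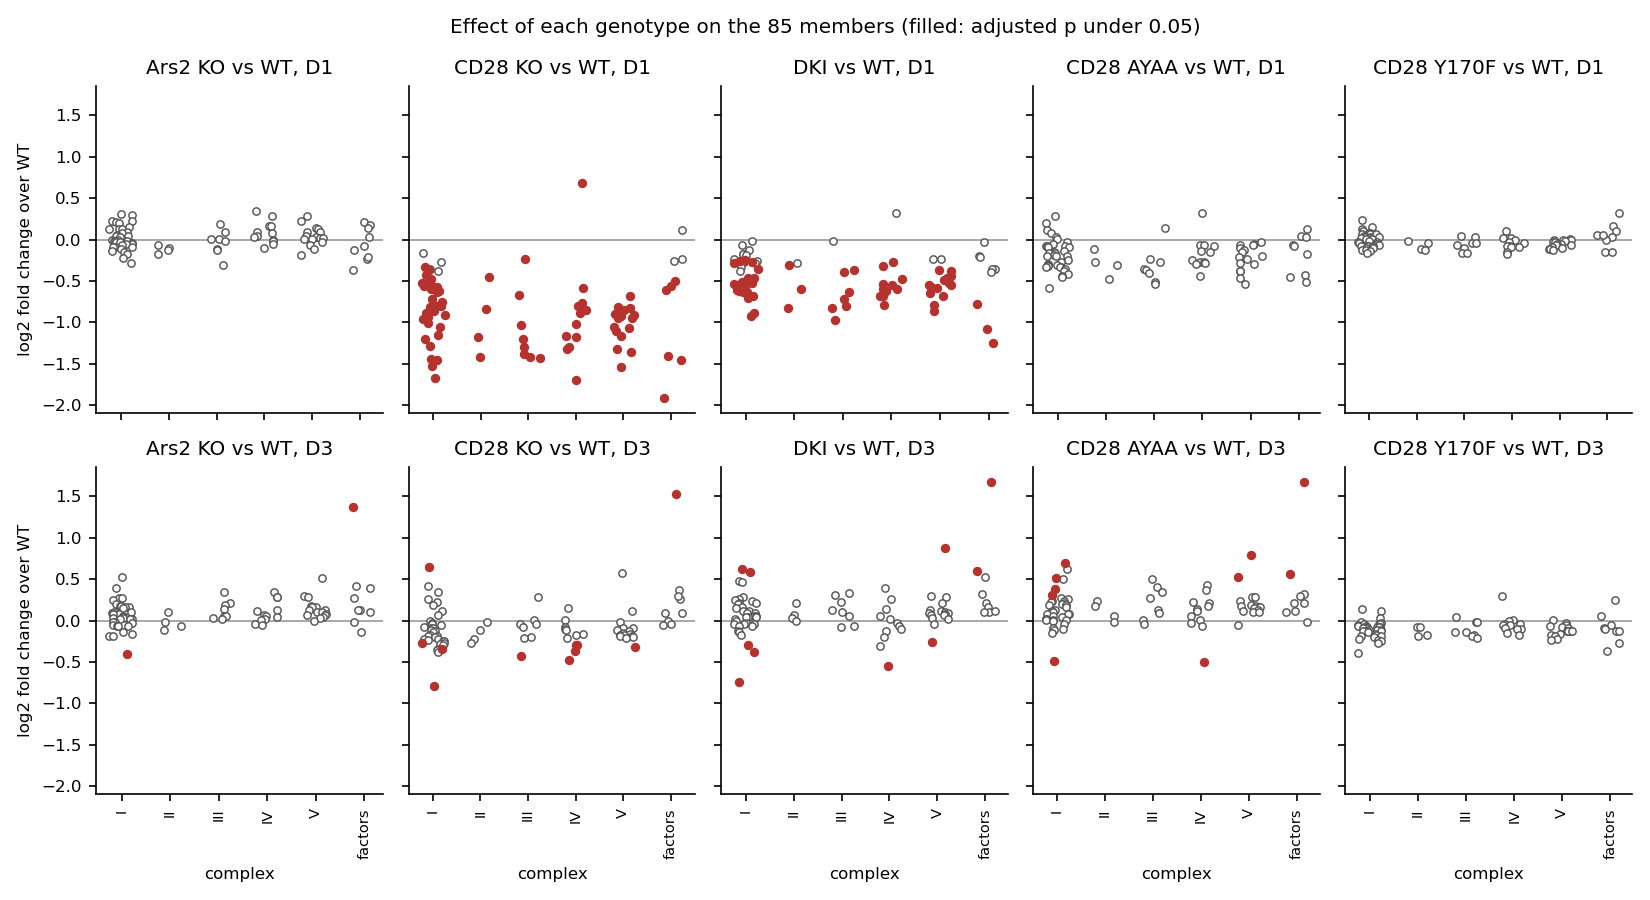
Log2 fold change over WT of the same day (vertical axis) for each of the 85 members by complex, in the 5 genotypes at D1 (top) and D3 (bottom), with filled points for an adjusted p under 0.05. The libraries labelled CD28 KO have 77 members lower at D1, and at D3 no genotype has more than 11 members called.

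By D3 far fewer members differed from WT than at D1 in the libraries labelled CD28 KO and in DKI cells. Against WT at D3, 2 members were higher and 9 lower in the libraries labelled CD28 KO, with 20% of all genes called (8.57% higher, 11.5% lower) and a median log2 fold change of −0.12. In DKI cells 5 were higher and 5 lower, with 23.4% of all genes called (10.3% higher, 13.1% lower) and a median of 0.09. In AYAA cells 8 were higher and 2 lower, with 21.7% called (10.4% higher, 11.3% lower) and a median of 0.17. In ARS2 KO cells 1 was higher and 1 lower, with 12.9% called (6.6% higher, 6.27% lower) and a median of 0.08. In Y170F cells 0 were called, with 0.0273% of all genes called, 2 members at an unadjusted p under 0.05, 0 by DESeq2 and by limma-voom, and a median of −0.10. The share of members called was below that of all genes in each of the 4 genotypes with calls. The mean log2 ratio to D0 was 0.21 ± 0.02 (SD, n = 2) in the libraries labelled CD28 KO, 0.39 ± 0.02 in DKI and 0.46 ± 0.05 in AYAA cells (n = 3 each), against 0.27 ± 0.20 (n = 2) in WT.

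The change in the genotype effect between the days was tested as a difference of differences. In the libraries labelled CD28 KO, 65 members had a D3 effect above the D1 effect and 1 below it, against 35.3% of all genes (20.5% above, 14.7% below), with a median difference of 0.75. It covered 25 of 36 subunits in complex I, 3 of 4 in complex II, 7 of 8 in complex III, 9 of 12 in complex IV and 16 of 16 in complex V. In DKI cells the counts were 54 above and 2 below, with 32.5% of all genes called (17.7% above, 14.7% below). In AYAA cells they were 17 and 2, with 24.4% of all genes called (12.3% above, 12.1% below), and in ARS2 KO cells 1 and 1, with 3.68% called (1.91% above, 1.77% below). In Y170F cells 0 members and 0% of all genes were called, with 1 member at an unadjusted p under 0.05 and 0 by DESeq2 and by limma-voom. Atp5b had a difference of 1.23 ± 0.28 (adjusted p = 0.0011) in the libraries labelled CD28 KO and 0.89 ± 0.25 (adjusted p = 0.0084) in DKI cells. Cox5a had 1.71 ± 0.31 (adjusted p = 1.2e-04) and 1.18 ± 0.28 (adjusted p = 0.0020) in these genotypes.

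These counts depended on single libraries. For the libraries labelled CD28 KO the count was 38 without WT library number 1 at D1. For DKI it was 14 without that library and 18 without WT library number 4 at D3. For AYAA it was 12 without AYAA library number 1 at D1 or number 2 at D3, 5 without WT number 1 and 34 without WT number 4 at D1, and 36 without WT number 1 and 3 without WT number 4 at D3. For ARS2 KO it was 1 without any of ARS2 KO numbers 1 and 2 of either day, either WT library at D1 or WT number 4 at D3.

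Ndufaf4 was the member that set the mutants most apart from WT at D3. It was 26.6, 33.2 and 16.1 CPM in ARS2 KO cells, 30.6 and 25.9 CPM in the libraries labelled CD28 KO, 29.6, 26.8 and 37.2 CPM in DKI cells and 29.9, 32.8 and 31.3 CPM in AYAA cells, against 11.6 and 7.51 CPM in WT. Every library of these 4 genotypes exceeded both WT libraries, whereas Y170F cells, at 11.8, 8.05 and 7.56 CPM, overlapped WT. A summed level of 4 NK cell markers divided the D3 libraries in the same way. It was 141 to 305 CPM in ARS2 KO, 332 to 419 CPM in the libraries labelled CD28 KO, 279 to 316 CPM in DKI and 264 to 391 CPM in AYAA cells, and 59.7 to 121 CPM in Y170F cells, against 69.3 to 123 CPM in WT. Most of it was Eomes, which activated CD8 T cells also express and which averaged 351 CPM in the libraries labelled CD28 KO and 102 CPM in WT. The sums use plain library totals and the values of single genes scaled ones, so the 2 are not on exactly one scale. Ncr1, a defining marker, averaged 1.26 CPM in the libraries labelled CD28 KO and 0.0952 CPM in WT. It was not called in ARS2 KO or AYAA cells over WT (adjusted p = 0.12 and 0.36). In ARS2 KO and AYAA cells Klrb1c was called higher, by 2.69 and 2.96 on the log2 scale. Klra8 pointed lower there and was not called (−1.43 and −1.44, adjusted p = 0.33 and 0.29). The part of these markers in the D3 differences was not tested. The log2 fold changes of Ndufaf4 over WT were 1.37 ± 0.24 (adjusted p = 5.4e-04) in ARS2 KO, 1.53 ± 0.25 (adjusted p = 1.5e-04) in the libraries labelled CD28 KO, 1.67 ± 0.24 (adjusted p = 2.7e-05) in DKI and 1.68 ± 0.24 (adjusted p = 3.6e-05) in AYAA cells. These comparisons share the same 2 WT libraries. At D1 the gene was lower in the libraries labelled CD28 KO, at 12.4 and 16.3 CPM against 42.5 and 36.5 CPM in WT (−1.46 ± 0.25, adjusted p = 3.9e-05), so the difference between the effects reached 2.99 ± 0.35 (adjusted p = 1.4e-06).

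Atp5g1 of the c ring was higher than WT in DKI and AYAA cells at D3, 2 comparisons that share the WT libraries. It was 68.1, 67.4 and 58.3 CPM in DKI and 60.01, 65.7 and 57.8 CPM in AYAA cells at D3, against 42.4 and 27.3 CPM in WT, with no overlap. The log2 fold changes were 0.88 ± 0.27 (adjusted p = 0.018) in DKI and 0.80 ± 0.27 (adjusted p = 0.032) in AYAA cells. Its share of the c ring transcripts per kilobase was 8.94% in DKI and 8.07% in AYAA cells, against 5.14% in WT. Without WT library number 4 at D3 neither of these calls was made. Ndufab1 and Ndufaf8 were also higher in both genotypes, by 0.59 and 0.60 in DKI and by 0.51 and 0.56 in AYAA cells, and Ndufb4 was higher by 0.62 in DKI cells, 0.69 in AYAA cells and 0.64 in the libraries labelled CD28 KO.

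Ndufv3 was lower than WT at D3 in the 4 genotypes other than Y170F, and Cox7a2l in 3 of them. Ndufv3 was 50.7, 55.2 and 60.2 CPM in ARS2 KO cells, 41.0 and 43.7 CPM in the libraries labelled CD28 KO, 42.1, 46.7 and 42.7 CPM in DKI and 53.1, 50.6 and 53.6 CPM in AYAA cells at D3, against 86.2 and 60.2 CPM in WT. All but the highest ARS2 KO library were below both WT libraries, and that one was level with the lower WT library to the digits given. The log2 fold changes were −0.41 (adjusted p = 0.019), −0.80 (adjusted p = 1.0e-04), −0.75 (adjusted p = 5.5e-05) and −0.49 (adjusted p = 0.0033) in that order, and Y170F cells, at 77.7, 68.9 and 61.0 CPM, overlapped WT. Cox7a2l was 125 and 132 CPM in the libraries labelled CD28 KO, 122, 127 and 115 CPM in DKI and 126, 129 and 122 CPM in AYAA cells, against 166 and 190 CPM in WT, and fell by 0.47, 0.55 and 0.50 on the log2 scale (adjusted p = 0.028, 0.0043 and 0.0099). In ARS2 KO cells it was 189, 152 and 198 CPM and not called (0.02 ± 0.14, adjusted p = 0.97). The libraries labelled CD28 KO thus had more Cox7a2l than WT at D1 and less at D3, a difference of effects of −1.16 ± 0.21 (adjusted p = 1.6e-04).

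**Figure D4:**
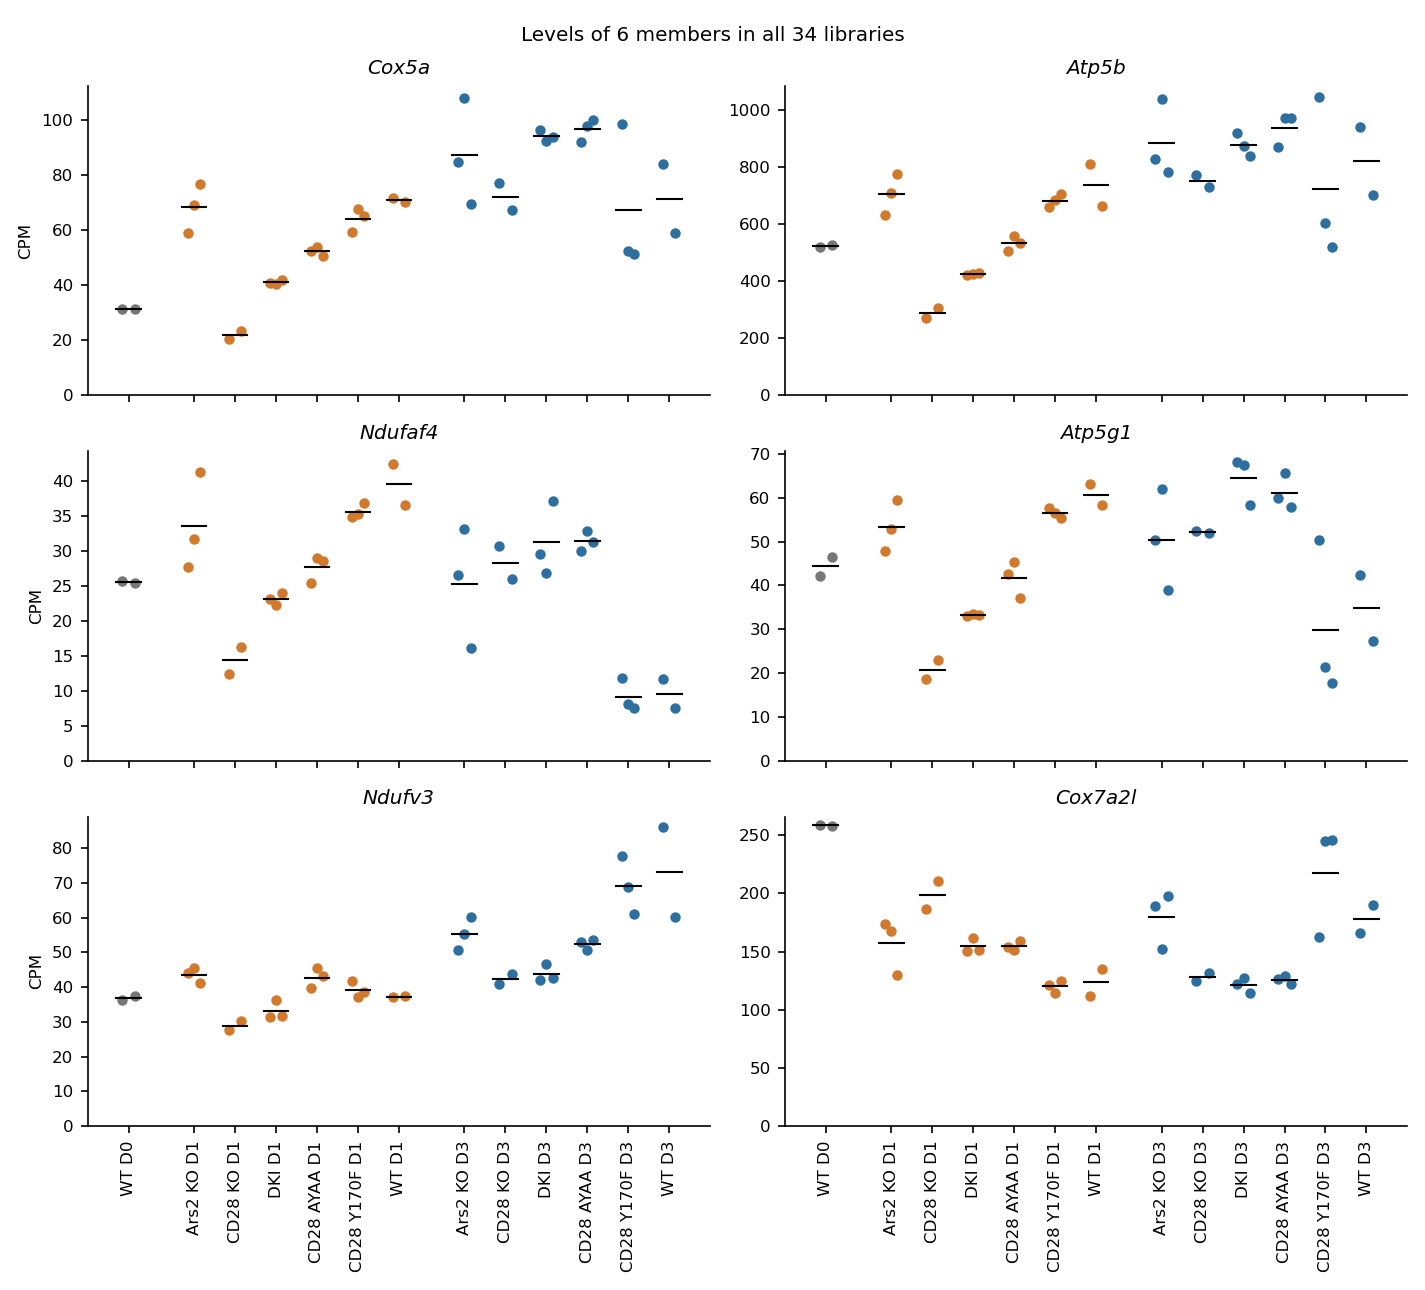
CPM (vertical axis, from 0) of Cox5a, Atp5b, Ndufaf4, Atp5g1, Ndufv3 and Cox7a2l in all 34 libraries, 1 point per library and a bar for the group mean, by genotype and day. Ndufaf4 is low at D3 in WT and Y170F and higher in the other genotypes, and Ndufv3 shows the reverse.

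The counts at D3 were small and moved with single libraries. In the libraries labelled CD28 KO the count was 3 without either of its own libraries, 5 without WT number 1 and 7 without WT number 4, and in DKI cells it was 3 without WT number 4. In AYAA cells it was 4 without AYAA number 2, 5 without AYAA number 3 and 2 without WT number 4, and in ARS2 KO cells it was 1 without ARS2 KO number 1 and 4 without its number 3. Ndufaf4 stayed called in each of these settings for the libraries labelled CD28 KO, DKI, AYAA and ARS2 KO. Between DKI and the libraries labelled CD28 KO at D3 edgeR called no member, with 0.454% of all genes called, 20 members at an unadjusted p under 0.05, 1 called by DESeq2 and 0 by limma-voom. The median log2 fold change was 0.18, every DKI library lay above both others in 55 members (19.9% of all genes), and a fit to these groups alone called 23 members higher and 0 lower.

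The comparison of AYAA with Y170F cells at D3, which uses no WT library, called 32 members higher and 2 lower, against 36.8% of all genes (17.6% higher, 19.2% lower), with a median log2 fold change of 0.26. Higher calls covered 12 of 36 subunits in complex I, 1 of 4 in complex II, 4 of 8 in complex III, 3 of 12 in complex IV, 8 of 16 in complex V and 4 of the 9 factors. Ndufaf4 was 29.9, 32.8 and 31.3 CPM in AYAA cells, against 11.8, 8.05 and 7.56 CPM in Y170F cells (1.78 ± 0.21, adjusted p = 8.0e-07), without overlap. Atp5g1 was 60.01, 65.7 and 57.8 CPM in AYAA cells, against 50.4, 21.5 and 17.7 CPM in Y170F cells (1.03 ± 0.23, adjusted p = 0.0011). Cox7a2l was 126, 129 and 122 CPM in AYAA cells, against 162, 245 and 246 CPM in Y170F cells (−0.79 ± 0.12, adjusted p = 2.3e-05), and Ndufv3 fell by 0.40 ± 0.10 (adjusted p = 0.0033). For these 3 genes too every AYAA library lay on one side of every Y170F library.

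One Y170F library departed from the other two at D3. Its mean log2 ratio to D0 over the 85 members was 0.49, against 0.03 and −0.06 in the others, and for Atp5b it had 1046 CPM against 605 and 519 CPM. Without that library, number 1, the comparison of AYAA with Y170F called 69 members, and Y170F against WT at D3 called 21 members where all libraries gave 0. The AYAA to Y170F count was 10 without Y170F number 2 or number 3 and 19 without AYAA number 2. The 2 WT libraries at D3 also lay apart, at 0.41 and 0.13.

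**Figure D5:**
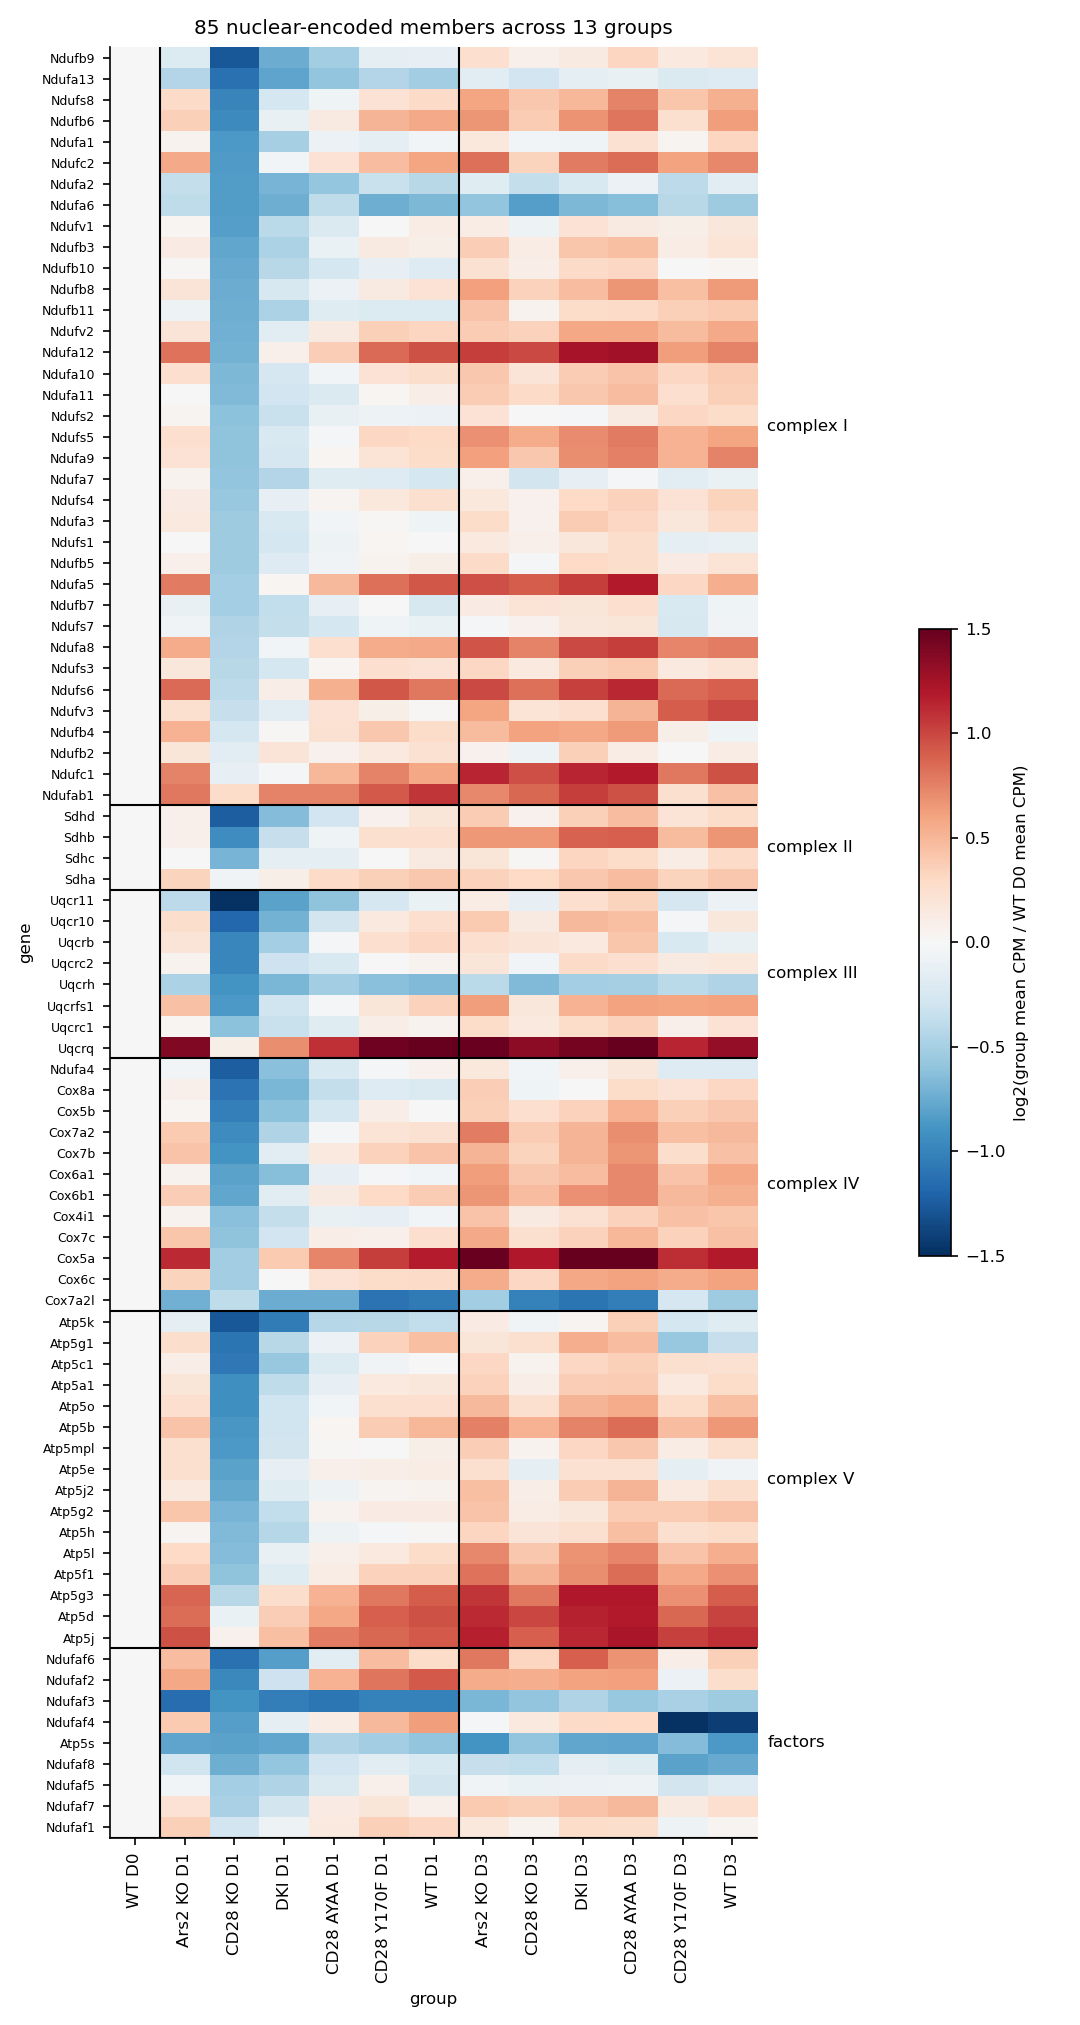
Log2 ratio of the group mean CPM to the unstimulated WT mean (colour, red above and blue below) for the 85 members (rows, by complex) in the 13 groups (columns). The column of the libraries labelled CD28 KO at D1 is blue in nearly every row, and Cox7a2l is below the unstimulated level in every stimulated group.

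As a description of how the members varied together, each was correlated with the mean log2 level of the other 84 over the 34 libraries, which share groups and genotypes. The median Pearson r was 0.923, and 73 members had an r of at least 0.7. The members closest to the rest were Atp5b (0.991), Atp5o (0.989), Atp5a1 (0.988) and Sdhd (0.983), so parts of complex V led this order. At the other end stood Cox7a2l (−0.44) and Atp5s (−0.02), and Ndufa6 (0.07), Ndufaf3 (0.26) and Ndufaf4 (0.29) were weakly related. The ratio of the highest to the lowest group mean had a median of 2.42 and was widest for Cox5a at 4.42 and Ndufaf4 at 4.32, and narrowest for Sdha and Ndufb2 at 1.43. The highest group mean was that of AYAA cells at D3 in 49 members, of DKI at D3 in 11 and of unstimulated WT in 8.

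The mitochondrially encoded subunits, 13 genes read from the other genome, kept their own pattern. In WT cells 8 were higher and 1 lower at D1 than at D0, with a median log2 fold change of 0.85, and 9 were higher at D3. Here 51.3% of all genes were called at D1 (24.2% higher, 27.2% lower) and 50.5% at D3 (23.5% higher, 27% lower). In the libraries labelled CD28 KO at D1, 6 were lower than WT (median −0.39), where 43.3% of all genes were called and 24.7% were lower. Yet 7 were higher and 2 lower than at D0 (median 0.63), whereas 73 nuclear members were lower than at D0. Against D0, 52.2% of all genes were called, with 21.1% higher and 31.1% lower. mt-Nd5 was 1493 and 1513 CPM in the libraries labelled CD28 KO at D1, above both D0 libraries at 312 and 358 CPM. In WT at D1 it was 2154 and 1924 CPM. mt-Nd1 did not exceed D0, with 1058 and 1144 CPM in the libraries labelled CD28 KO at D1 against 1167 and 1272 CPM at D0. In WT at D1 mt-Nd1 was 2254 and 1803 CPM. Against WT at D1 the 2 genomes thus differed in the size of change, and this difference was not itself tested. The share of mitochondrial ribosomal RNA also set D0 apart from the other libraries, and its part in the mitochondrial values was not tested.

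Genes that serve the chain without being members were followed as lists. Of 43 genes for electron carriers and assembly, 24 were lower and 2 higher in the libraries labelled CD28 KO than in WT at D1 (median −0.38), where 18.6% of all genes were higher and 24.7% lower. In DKI cells 13 were lower and 1 higher, where 26% of all genes were called (10.3% higher, 15.8% lower). Cycs, which encodes cytochrome c, averaged 44.0 ± 7.0 CPM in the libraries labelled CD28 KO and 133 ± 22 CPM in WT (SD, n = 2 each), a log2 fold change of −1.60. Cyc1, cytochrome c1 of complex III, fell by 1.21 and Atpif1, the inhibitor of ATP synthase, by 1.37. At D3 AYAA cells had 15 of the 43 higher and 4 lower than Y170F cells, with Cycs higher by 1.22. There 36.8% of all genes were called (17.6% higher, 19.2% lower). In WT cells 13 were higher and 7 lower at D1 than at D0, and 8 were higher and 9 lower at D3. All genes were called in 51.3% at D1 (24.2% higher, 27.2% lower) and 50.5% at D3 (23.5% higher, 27% lower).

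Among 15 regulators of mitochondrial genes, 6 were higher and 3 lower in WT cells at D1 than at D0. Here 51.3% of all genes were called, 24.2% higher and 27.2% lower. Among the regulators called were Myc (2.28), Pprc1 (2.23), a coactivator related to PGC-1α, and Ppargc1a itself, which encodes PGC-1α (−3.73). Ppargc1a was measured with little precision in stimulated cells. Its SE was 1.09 for Y170F against WT at D1, where that of Myc was 0.25. In the libraries labelled CD28 KO at D1, 6 were lower and 3 higher than WT, where 43.3% of all genes were called (18.6% higher, 24.7% lower). Myc fell by 1.62, Lrpprc, which stabilises mitochondrial messenger RNA, by 1.11, Pprc1 by 0.92 and Tfam, which packages mitochondrial DNA, by 0.49, while Nrf1 was higher by 0.24. At D3, AYAA cells had 7 of the 15 higher than Y170F cells and none lower, where 36.8% of all genes were called (17.6% higher, 19.2% lower). Pprc1 was at 2.07, Myc at 1.45 and Lrpprc at 0.90 on the log2 scale. The counts of these small lists are descriptions beside those shares.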

How the data were processed

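Total RNA of 34 libraries in 13 groups of genotype and day was sequenced. The authors deposited a table of estimated counts (expected counts) per gene, and library totals in it differ as in values that were not normalized. The submitters' processing notes name bcl2fastq, FastQC, STAR, RSEM and limma without their roles, and the builds mm10 and GRCm38, while strand setting and annotation are not given in the sources used here. The counts need not be whole, so they were rounded. Estimated counts can divide reads among near-identical copies, so genes with such copies are less certain. Of 48526 identifiers, 48058 (99.04%) matched M21.

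Genes that passed filterByExpr (18292) were fitted together over the 13 group means with TMM scaling and edgeR 4.0.16 quasi-likelihood tests (R 4.3.3, 21 residual degrees of freedom). Benjamini-Hochberg adjustment ran over all of these genes in each of the 27 comparisons, at 0.05. The SE was taken from the fold change and the F value. CPM values use TMM-scaled library sizes, but those of the membership rule and the summed marker levels use plain ones. The script was tested on simulated data. The labels call the libraries biological replicates, but the p-values measure only the spread between these libraries. Precision is lowest in the groups of 2 libraries and at the smallest total of 8348900 counts.

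Alternatives were DESeq2 1.42.0, limma-voom 3.58.1, RLE scaling, no filter, protein-coding genes alone, a fit to the compared groups, the WT library of like depth, a replicate block, each library left out, and, chosen after seeing the data, sex as a term. Named were up to 3 called members per complex and direction with the largest change, members against their complex, fixed core subunits and isoform sets, and in the text a selection of these. Members and gene lists were chosen with earlier results of these data known.

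Same-numbered AYAA and Y170F libraries deviated together at D1 (correlations 0.279, 0.326 and 0.385), and so did the ARS2 KO libraries across days (0.239, 0.233 and 0.101). The pairing comes from these correlations and the shared number, since the labels name no shared animal.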

Additional observations from a re-analysis of the deposited data

Results flagged for a closer look

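The effect of a genotype against WT differed between D3 and D1, by the test of that difference itself, in 66 members for the libraries labelled CD28 KO, 56 for DKI, 19 for AYAA and 2 for ARS2 KO cells. The same test called 35.3%, 32.5%, 24.4% and 3.68% of all genes in that order. The shares of members in AYAA and ARS2 KO cells were thus not above those of all genes. All 4 comparisons share the 4 stimulated WT libraries. In the libraries labelled CD28 KO the difference followed from members that were low at D1 and near WT at D3, for example Atp5b at 270 and 305 CPM, against 811 and 664 CPM in WT, at D1. The 2 members in ARS2 KO cells were Ndufaf4 and Ndufv3.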

How the results depend on the processing

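No named gene changed direction: of the alternatives to 300 named gene results, 3473 stayed on their side of the threshold with the same direction, 473 lost the call and 0 reversed. The following are counts of members called, and CD28 KO stands for the libraries labelled so. Without the filter on low counts they were 11 for WT at D3 over D1, 7 for AYAA against WT at D1, 3 for AYAA against Y170F at D1, 5 for the libraries labelled CD28 KO and 6 for DKI against WT at D3, and 1 for the ARS2 KO difference between days. In a fit to the compared groups alone they were 3 for WT at D3 over D1, 1 for AYAA against WT and 30 against Y170F at D1, 57 for DKI against CD28 KO at D1 and 23 at D3, and 0 for ARS2 KO and 3 for CD28 KO against WT at D3. In that fit they were also 9 for AYAA against Y170F at D3, 37 for AYAA and 43 for Y170F at D1 over D0, and 0 for ARS2 KO and 29 for AYAA in the difference between days. With the WT library of like depth alone (number 4 for DKI, number 1 for the others, on both days) they were 3 for DKI and 3 for AYAA at D1, 2 for AYAA at D3, and 1 for ARS2 KO, 27 for DKI and 3 for AYAA between days. DESeq2 gave 5 for AYAA against WT and 6 against Y170F at D1, and 1 for DKI against CD28 KO at D3, and limma-voom gave 22 for DKI against CD28 KO at D1. Among protein-coding genes alone, AYAA had 3 against WT and 2 against Y170F at D1, and with sex as a term, added after seeing the data, 1 and 1.

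Leaving out each library in turn gave 14 to 33 for WT at D1 over D0, 20 to 53 at D3 over D0 and 8 to 20 at D3 over D1. Against WT at D1 the ranges were 0 to 0 for ARS2 KO, 65 to 75 for CD28 KO, 3 to 61 for DKI, 0 to 3 for AYAA and 0 to 0 for Y170F, and at D3 they were 1 to 4, 3 to 7, 3 to 9, 2 to 15 and 0 to 21. DKI against CD28 KO gave 2 to 25 at D1 and 0 to 0 at D3, and AYAA against Y170F 0 to 0 and 10 to 69. At D1 over D0 the ranges were 17 to 36 for ARS2 KO, 61 to 67 for CD28 KO, 29 to 38 for DKI, 12 to 18 for AYAA and 17 to 21 for Y170F. Between days they were 1 to 2, 38 to 67, 14 to 58, 3 to 36 and 0 to 0. Apart from settings that drop samples, the cause was not tested.

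With the replicate number as a block, the count for AYAA against Y170F was 1 at D1 and 40 at D3, that for WT at D3 over D1 was 20, and those between days were 2 for ARS2 KO, 57 for DKI, 25 for AYAA and 0 for Y170F. The block changed no call of a named gene. Same-numbered libraries did not deviate together across days in DKI (correlations 0.019, 0.031 and 0.007). Between AYAA and Y170F at D3 the same-number correlations were 0.0002, 0.065 and 0.158. Across days they were 0.185, 0.035 and 0.307 in AYAA and 0.096, 0.094 and 0.244 in Y170F. Groups of 2 libraries and the shallow libraries limit what small changes could be called.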
